A study of Mus musculus with 8 samples.

Results

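Interferon-stimulated genes (ISGs) are genes whose transcription rises when a cell senses viral nucleic acid or receives an interferon. The set described here has 47 ISGs, chosen by gene name with earlier results of these data known. All 47 were among the 12528 genes of the deposited table, and all 47 passed the filter on low values. They comprise 6 sensors of nucleic acid and their partners, 4 transcription factors of the STAT and IRF families, 28 effectors and 9 interferon-inducible GTPases. RNA was sequenced from mouse embryonic fibroblasts (MEFs), WT or lacking caveolin-1 (Cav1KO), isolated from littermates and immortalized. Cells of each genotype were seeded at low confluence on polyacrylamide hydrogels, stiff (55 kPa) or soft (0.2 kPa), and RNA was taken after 24 h. The 2 genotypes on the 2 gels made 4 groups of 2 libraries each, and no virus, interferon or other agent was named for any group. Each genotype was represented by cells of a single source in the labels, so a genotype effect and a difference between the cell populations cannot be told apart. No label states that the libraries of a group came from separate cultures, so p-values measure the spread between these libraries, which may be technical. The embryo age of the donors is not given in the sources used here.

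Cells recognize viral RNA or DNA through sensors such as the helicases RIG-I and MDA5, which switch on interferon genes through IRF factors. Secreted type I interferon binds the receptor IFNAR, and the kinases JAK1 and TYK2 then activate STAT proteins, of which STAT2 joins IRF9 in the complex ISGF3. This complex binds interferon-stimulated response elements (ISREs) near the start sites of ISGs, which include the sensors, STATs and IRFs themselves, so that the response amplifies its own machinery. Type II interferon acts through gamma-activated sequences (GAS), and many guanylate-binding proteins and immunity-related GTPases respond to it. Fibroblasts can both make type I interferon and respond to it.

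The libraries held 17089836 to 19944952 reads on listed genes, and the deposited values are CPM scaled by TMM, which divides each gene's reads by an effective library size. A gene without a read in a library may still have had a level of up to 3 reads, or 0.151 to 0.181 CPM, a limit for counting error only. Cav1 had 949.8 to 1157 CPM in the 4 WT libraries and 0.0523 to 0.411 CPM in the 4 Cav1KO libraries. Of 11 fibroblast markers, 9 were listed (all but Thy1 and Lum). None of 7 lymphocyte, 5 endothelial and 5 epithelial markers was listed. Of 12 macrophage and dendritic cell markers, Cd68 and Cd14 were listed, and Ptprc, Adgre1, Csf1r, Itgam and Lyz2 were not. In bulk RNA, fewer cells of a type and less RNA per cell cannot be told apart.

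Sequence near the start site is shown first, because ISREs are the elements through which ISGF3 and IRFs act on these genes. RefSeq promoter windows (250 bases before to 50 bases after the start, GRCm38.p6) were held for 36 of the 47 genes and for 27025 genes in all. Not among them were Dhx58, Zbp1, Usp18, Parp9, Parp14, Ifi27, Rtp4, Tor3a, Iigp1, Mx1 and Mx2. The ISRE core GAAANNGAAA, searched on both strands, occurred in 18 of the 36 windows (50%) and in 1079 of all 27025 (3.99%). The GAS core TTCNNNGAA, which reads alike in form on both strands, occurred in 11 of the 36 (30.6%) and in 9.55% of all genes. Both cores occurred in 6 genes, and matches of one core may overlap those of the other. The stretches below lie upstream of the start and are written 5′ to 3′ on the gene's own strand. Capitals mark matches to the ISRE core, which reads as its reverse complement where the match lies on the opposite strand. They were chosen to show a sensor, effectors with 1, 2 or 3 matches, and genes of guanylate-binding proteins and immunity-related GTPases.
Ddx60 (chr8:61928014-61928086, plus strand): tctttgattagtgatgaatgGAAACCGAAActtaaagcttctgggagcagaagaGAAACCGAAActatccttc
Isg15 (chr4:156200855-156200916, minus strand): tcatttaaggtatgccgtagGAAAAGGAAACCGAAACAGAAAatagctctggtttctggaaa
Ifit1 (chr19:34640765-34640833, plus strand): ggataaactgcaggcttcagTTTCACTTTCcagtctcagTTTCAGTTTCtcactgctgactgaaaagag
Rsad2 (chr12:26456543-26456592, minus strand): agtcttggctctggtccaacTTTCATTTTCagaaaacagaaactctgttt
Gbp2 (chr3:142620584-142620633, plus strand): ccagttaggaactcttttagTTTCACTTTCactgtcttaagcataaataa
Igtp (chr11:58199502-58199551, plus strand): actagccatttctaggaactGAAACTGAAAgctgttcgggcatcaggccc
Irgm2 (chr11:58214893-58214942, plus strand): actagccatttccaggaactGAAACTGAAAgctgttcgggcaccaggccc

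Isg15 carried 3 overlapping matches and Ddx60 and Ifit1 carried 2 each. The stretches of Igtp and Irgm2, neighboring GTPase genes on chromosome 11, were the same at 48 of 50 bases. A match is a description of letters and not a site, and its absence says only that these letters are not in this window. All 18 genes with the ISRE core were lower on the stiff substrate in both genotypes, with a median log2 fold change of -2.22 in WT and -2.96 in Cav1KO cells. Of the 18 without it, 16 were lower in WT and 18 in Cav1KO cells, with medians of -1.59 and -1.98. Over all genes tested with a window, 39.8% of the 354 with the core were lower in WT cells, against 26.3% of the 9049 without it. In Cav1KO cells these shares were 40.4% and 28.6%. The members are part of these totals, and no test was made of the shares.

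The first comparison asks how substrate stiffness bears on ISG expression in each genotype. Almost the whole set had lower transcript levels on the stiff than on the soft gel, in WT and in Cav1KO cells alike. Of the 47 genes, 44 (93.6%) were lower on the stiff substrate in WT cells and 46 (97.9%) in Cav1KO cells. Among all 12494 genes tested, 26.3% were called lower in WT cells and 28.2% in Cav1KO cells. None of the 47 was called higher on the stiff substrate in either genotype, where 22.1% and 27.9% of all genes were. The tests were limma on log2(CPM + 1), two-sided, with Benjamini-Hochberg adjustment over all genes and a threshold of 0.05. For the higher direction the count was also 0 at an unadjusted p under 0.05, and 0 with edgeR and with DESeq2. The median log2 fold change of the 47 genes was -2.04 in WT and -2.63 in Cav1KO cells, beside -0.02 over all genes in each. The values ranged from -3.94 to -0.04 in WT cells and from -4.85 to 0.02 in Cav1KO cells, with standard errors from 0.08 to 0.37. Fold changes on this scale understate the change of genes with low CPM.

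Both stiff libraries lay below both soft libraries for 46 of the 47 genes in WT cells and for 46 in Cav1KO cells, where 39.6% and 40.2% of all genes did so. The exception in both genotypes was Ifi27. All 44 genes called lower in WT cells were also called lower in Cav1KO cells, and Oasl1 and Samhd1 were called in Cav1KO cells alone. The 50 genes with the most negative stiffness effect in WT cells included 15 of the 47 (31.9% of the set and 30% of the 50), and those in Cav1KO cells included 19 (40.4% and 38% in turn). The set makes up 0.376% of all genes tested. Summed over the 47 genes, expression was 1214 and 1505 CPM (WT) and 715.5 and 621.9 CPM (Cav1KO) on stiff, and 6050 and 4144 CPM (WT) and 3506 and 3463 CPM (Cav1KO) on soft gels. The stiff libraries were therefore low and the soft libraries high in both genotypes, and Cav1KO stiff was lowest.

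**Figure D1:**
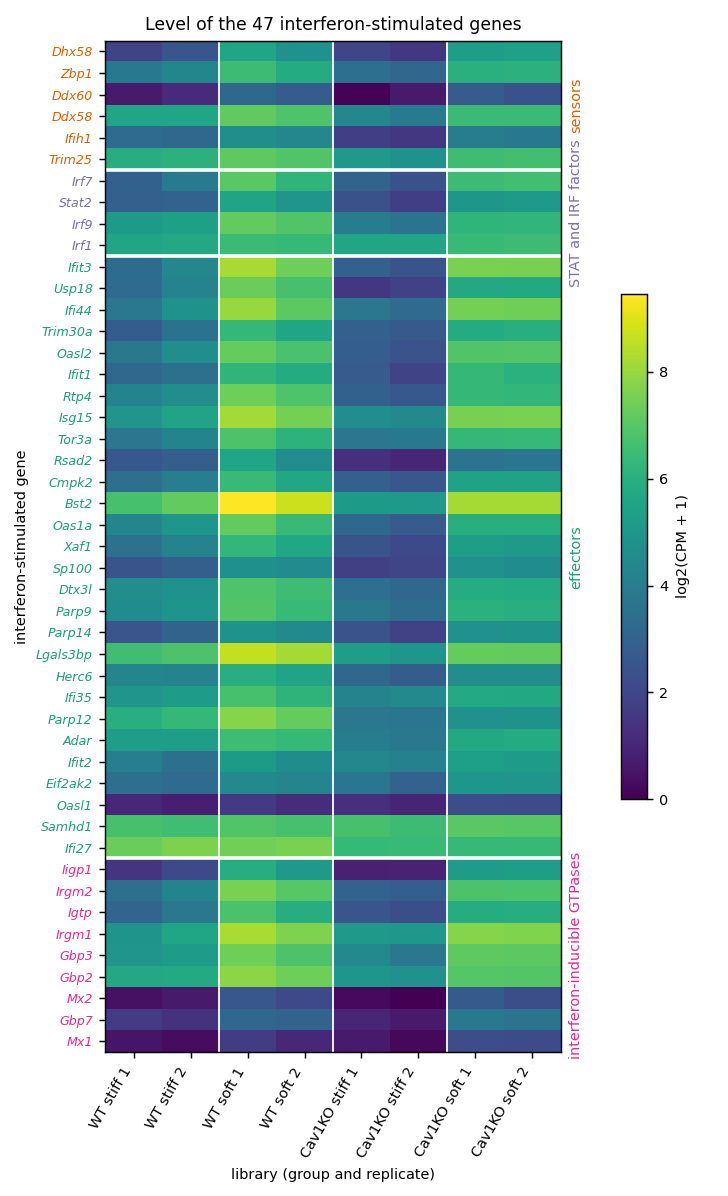
Level of each of the 47 genes (rows, grouped by role) in each of the 8 libraries (columns), as color on a log2(CPM + 1) scale. Columns of the soft substrate are brighter than those of the stiff substrate in both genotypes, except for Ifi27, and WT soft replicate 1 is brighter than WT soft replicate 2.

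The libraries of a group did not agree equally well. In WT soft, 46 of the 47 genes were higher in replicate 1 than in replicate 2, with a median difference of 0.53 log2 units, while 47.1% of all genes were higher in replicate 2. In WT stiff, 39 were higher in replicate 2, by a median of 0.305 over the set, and in Cav1KO stiff 40 were higher in replicate 1, by 0.28. In Cav1KO soft, 27 were higher in replicate 1 and the median difference was 0.02. The 47 genes thus moved together within groups too, so they are not 47 independent readings of a group. The stiffness effect was seen without each doubtful library. Without WT soft replicate 1 the median in WT cells was -1.75 with 43 genes lower, and without WT stiff replicate 2 it was -2.21 with 43 genes lower.

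**Figure D2:**
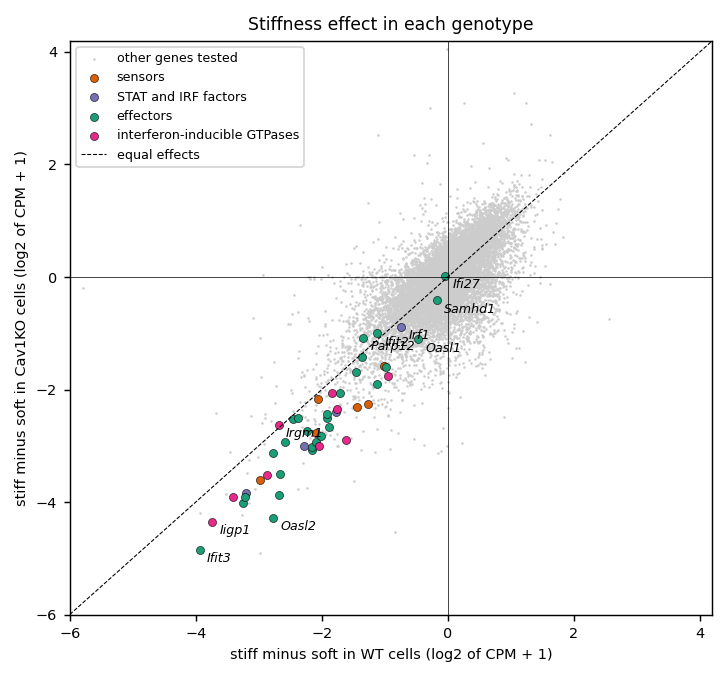
Stiffness effect (stiff minus soft, log2 of CPM + 1) in WT cells (x axis) against Cav1KO cells (y axis), with the 47 genes colored by role over all genes tested in grey and a dashed line of equal effects. The 47 genes lie in the lower left, and 43 of them lie below the line.

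The sensors were all lower on the stiff substrate in both genotypes (6 of 6 each), by 2.03-fold to 9.80-fold in WT and 3.03-fold to 16.6-fold in Cav1KO cells, as ratios of group mean CPM. Of all genes tested, 26.3% were called lower in WT and 28.2% in Cav1KO cells. Their adjusted p from limma ran from 0.000119 to 0.000395 in WT and from 1.75e-05 to 0.000215 in Cav1KO cells. Ddx58 encodes RIG-I, a helicase that senses viral RNA ends. It had 45.9 and 46.6 CPM (WT) and 20.4 and 13.7 CPM (Cav1KO) on stiff, and 140.5 and 116 CPM (WT) and 86.6 and 87.5 CPM (Cav1KO) on soft gels. Ifih1 encodes MDA5, which senses long double-stranded RNA, and it had 8.79 and 8.27 CPM (WT) and 2.41 and 1.92 CPM (Cav1KO) on stiff, and 24.5 and 19.7 CPM (WT) and 15.1 and 13.3 CPM (Cav1KO) on soft gels. For both helicases the 4 groups did not overlap, WT soft was highest and Cav1KO stiff was lowest. Dhx58 encodes LGP2, another helicase of this family, which tunes the other two. It had 2.81 and 4.79 CPM (WT) and 2.94 and 1.86 CPM (Cav1KO) on stiff, and 47.3 and 27.2 CPM (WT) and 38.3 and 41.3 CPM (Cav1KO) on soft gels, and on each substrate the WT and Cav1KO libraries overlapped. Zbp1, a sensor of Z-form nucleic acid, had 13.2 and 19.1 CPM (WT) and 9.89 and 7.62 CPM (Cav1KO) on stiff, and 89.3 and 56.1 CPM (WT) and 64.2 and 66.5 CPM (Cav1KO) on soft gels. Trim25, a ubiquitin ligase that acts on RIG-I, had 58.6 and 67.2 CPM (WT) and 33.96 and 27.8 CPM (Cav1KO) on stiff, and 138 and 118 CPM (WT) and 91.3 and 95.7 CPM (Cav1KO) on soft gels and the smallest stiffness effect of the sensors. Ddx60, a helicase linked to RIG-I signaling, was the least abundant. It had 0.603 and 1.197 CPM (WT) and 0.0588 and 0.603 CPM (Cav1KO) on stiff, and 8.22 and 5.696 CPM (WT) and 5.54 and 4.22 CPM (Cav1KO) on soft gels, so its Cav1KO stiff values rest on few reads.

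The transcription factors were lower on the stiff substrate in both genotypes (4 of 4 each), with adjusted p from 6.21e-05 to 0.000225 in WT and from 1.25e-05 to 5.83e-05 in Cav1KO cells (limma). The shares of all genes tested that were lower were 26.3% in WT and 28.2% in Cav1KO cells. Irf7, the IRF that drives the amplifying phase of interferon induction, moved most, by 9.84-fold in WT and 16.3-fold in Cav1KO cells. It had 6.68 and 14.1 CPM (WT) and 7.003 and 4.28 CPM (Cav1KO) on stiff, and 132 and 72.6 CPM (WT) and 89.4 and 94.8 CPM (Cav1KO) on soft gels. Stat2 and Irf9 encode subunits of ISGF3. Stat2 had 6.43 and 6.96 CPM (WT) and 4.12 and 2.36 CPM (Cav1KO) on stiff, and 45.6 and 29.3 CPM (WT) and 31.5 and 32.7 CPM (Cav1KO) on soft gels, and Irf9 had 34.6 and 41.2 CPM (WT) and 14.5 and 11.6 CPM (Cav1KO) on stiff, and 146 and 118 CPM (WT) and 72.5 and 73.2 CPM (Cav1KO) on soft gels. In all 4 groups Irf9 was more abundant than Stat2 on the CPM scale, and per kb of transcript as well (34.1 against 8.51 CPM per kb in WT soft). Irf1, which acts downstream of both interferon types and of inflammatory signals, moved least. It had 48.2 and 51.2 CPM (WT) and 46.5 and 45.9 CPM (Cav1KO) on stiff, and 86.7 and 80.1 CPM (WT) and 83.7 and 88.3 CPM (Cav1KO) on soft gels, a fall on stiff of 0.74 in WT and 0.88 in Cav1KO cells on the log2 scale that was well above its standard error of 0.08. Irf1 did not differ past the threshold between genotypes on either substrate.

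On the log2(CPM + 1) scale the 28 effectors held the largest and the smallest stiffness effects of the set. On the stiff substrate 25 were lower in WT cells (adjusted p from 5.09e-05 to 0.00521) and 27 in Cav1KO cells (1.15e-05 to 0.00692, limma). Of all genes tested, 26.3% were lower in WT and 28.2% in Cav1KO cells. The IFIT proteins bind viral RNA and block its translation. Ifit3 had the largest stiffness effect of all 47 genes on this scale, with 9.24 and 19.7 CPM (WT) and 6.77 and 4.49 CPM (Cav1KO) on stiff, and 297 and 167 CPM (WT) and 189 and 185 CPM (Cav1KO) on soft gels. As a ratio of group mean CPM its effect was 16.01-fold in WT, behind Iigp1, and 33.2-fold in Cav1KO cells, behind Mx2 and Iigp1. Its log2 fold change was -3.94 (standard error 0.35) in WT and -4.85 (0.35) in Cav1KO cells. Of its 60-nt transcript windows, 46.98% also occur in other listed genes, mainly Ifit3b, so its own level is uncertain. Ifit1 had 8.04 and 10.3 CPM (WT) and 5.59 and 2.79 CPM (Cav1KO) on stiff, and 72.9 and 55.8 CPM (WT) and 78.9 and 65.8 CPM (Cav1KO) on soft gels, and Ifit2 had 15.5 and 10.4 CPM (WT) and 19.7 and 16.9 CPM (Cav1KO) on stiff, and 34.8 and 23.6 CPM (WT) and 39.2 and 35.8 CPM (Cav1KO) on soft gels. The 3 genes lie within 99.3 kb on chromosome 19, and Ifit2 moved far less than its neighbors. Ifit2 was also higher in both Cav1KO than in both WT libraries on each substrate, but neither difference passed the threshold (adjusted p = 0.0839 on stiff and 0.168 on soft, limma).

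ISG15 is a ubiquitin-like protein that is coupled to other proteins, HERC6 is its ligase in mice, and USP18 removes it and also dampens signaling by the type I receptor. Isg15 had 29.9 and 45.1 CPM (WT) and 24.2 and 22.4 CPM (Cav1KO) on stiff, and 281 and 179.5 CPM (WT) and 181 and 185.5 CPM (Cav1KO) on soft gels. Usp18 had 8.99 and 17.8 CPM (WT) and 1.88 and 2.69 CPM (Cav1KO) on stiff, and 161 and 104 CPM (WT) and 51.2 and 52.7 CPM (Cav1KO) on soft gels. Herc6 had 19.3 and 17.6 CPM (WT) and 8.003 and 5.92 CPM (Cav1KO) on stiff, and 60.7 and 45.6 CPM (WT) and 24.4 and 24.4 CPM (Cav1KO) on soft gels. All 3 fell from soft to stiff in both genotypes, and Usp18 was lowest in Cav1KO stiff, at 5.86-fold below WT stiff.

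The oligoadenylate synthetase family, PKR and ADAR act on double-stranded RNA. Oas1a, which makes oligoadenylates on binding double-stranded RNA, had 19.4 and 30.04 CPM (WT) and 7.94 and 5.59 CPM (Cav1KO) on stiff, and 146 and 83.9 CPM (WT) and 62.5 and 59.8 CPM (Cav1KO) on soft gels. Of its windows 52.9% also occur in other listed genes, mainly Oas1g, so its level is uncertain. Oasl2 had 12.8 and 24.2 CPM (WT) and 6.12 and 4.38 CPM (Cav1KO) on stiff, and 149 and 108 CPM (WT) and 118 and 119.7 CPM (Cav1KO) on soft gels, and its soft libraries were alike in the genotypes while its Cav1KO stiff libraries lay far below WT stiff. Oasl1, which in mice restrains IRF7 translation, stayed at 1.16 and 0.741 CPM (WT) and 1.41 and 0.987 CPM (Cav1KO) on stiff, and 2.05 and 1.34 CPM (WT) and 3.76 and 3.65 CPM (Cav1KO) on soft gels. Its fall on stiff passed the threshold in Cav1KO cells (log2 fold change -1.10, adjusted p = 0.00139) and not in WT cells (-0.47, adjusted p = 0.0748, limma). Eif2ak2 encodes PKR, which stops translation on sensing double-stranded RNA, and had 10.2 and 9.01 CPM (WT) and 12.2 and 6.96 CPM (Cav1KO) on stiff, and 20.8 and 18.97 CPM (WT) and 30.7 and 29.4 CPM (Cav1KO) on soft gels. Adar, which edits adenosines in double-stranded RNA, had 38.4 and 38.99 CPM (WT) and 15.1 and 12.7 CPM (Cav1KO) on stiff, and 91.7 and 79.5 CPM (WT) and 53.01 and 55.7 CPM (Cav1KO) on soft gels. Chrnb2 overlaps Adar on the opposite strand, and the strand setting of the counting is not given in the sources used here. Adar had tightly grouped libraries and fell by 1.12 in WT and 1.90 in Cav1KO cells on the log2 scale.

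Several effectors restrict virus replication or release. Bst2 encodes tetherin, which holds budding virions at the cell surface, and was the effector with the highest CPM on the soft substrate. It had 105 and 145 CPM (WT) and 34.3 and 33.3 CPM (Cav1KO) on stiff, and 706 and 432 CPM (WT) and 292 and 289 CPM (Cav1KO) on soft gels. Rsad2 encodes viperin and lies beside Cmpk2, a mitochondrial nucleotide kinase, on chromosome 12. Rsad2 had 5.02 and 6.33 CPM (WT) and 1.47 and 1.041 CPM (Cav1KO) on stiff, and 47.2 and 23.8 CPM (WT) and 11.3 and 12.2 CPM (Cav1KO) on soft gels. Cmpk2 had 10.2 and 15.7 CPM (WT) and 6.47 and 4.99 CPM (Cav1KO) on stiff, and 83.98 and 48.2 CPM (WT) and 44.2 and 43.1 CPM (Cav1KO) on soft gels. Both fell from soft to stiff in each genotype. Trim30a and Sp100 also fell in each genotype, and Samhd1 in Cav1KO cells. Trim30a, a TRIM-family regulator of inflammatory signaling, had 5.78 and 10.7 CPM (WT) and 6.41 and 5.21 CPM (Cav1KO) on stiff, and 78.5 and 45.8 CPM (WT) and 55.2 and 61.6 CPM (Cav1KO) on soft gels. Sp100, a component of nuclear bodies, had 4.47 and 6.27 CPM (WT) and 2.47 and 2.905 CPM (Cav1KO) on stiff, and 26.1 and 22.7 CPM (WT) and 26.9 and 23.4 CPM (Cav1KO) on soft gels. Samhd1, which depletes the nucleotides that viruses need for DNA synthesis, had 102 and 93.03 CPM (WT) and 103 and 89.3 CPM (Cav1KO) on stiff, and 118 and 103 CPM (WT) and 129.5 and 127 CPM (Cav1KO) on soft gels. It was the least responsive gene that still passed in any genotype, with a log2 fold change of -0.41 in Cav1KO (adjusted p = 0.00692) and -0.17 in WT cells (adjusted p = 0.185, limma).

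The 4 genes of protein ADP-ribosylation were all lower on stiff in both genotypes, where 26.3% (WT) and 28.2% (Cav1KO) of all genes tested were. PARP9 and DTX3L act as a pair, and their genes overlap head to head with Parp14 close by on chromosome 16. Parp9 had 23.5 and 28.5 CPM (WT) and 12.8 and 9.21 CPM (Cav1KO) on stiff, and 119 and 84.2 CPM (WT) and 65.7 and 60.8 CPM (Cav1KO) on soft gels, and Dtx3l had 24.5 and 28.3 CPM (WT) and 10.1 and 8.28 CPM (Cav1KO) on stiff, and 116 and 90.2 CPM (WT) and 57.7 and 54.9 CPM (Cav1KO) on soft gels. Parp14 had 4.67 and 7.07 CPM (WT) and 4.296 and 2.63 CPM (Cav1KO) on stiff, and 27.1 and 21.3 CPM (WT) and 26.4 and 27.4 CPM (Cav1KO) on soft gels. Parp12 stood apart by genotype rather than by substrate, with 62.4 and 77.3 CPM (WT) and 12.5 and 12.1 CPM (Cav1KO) on stiff, and 214 and 148 CPM (WT) and 26.4 and 27.9 CPM (Cav1KO) on soft gels. Its Cav1KO libraries were all below all WT libraries, and its genotype effect of -2.40 on stiff and -2.67 on soft was larger than its stiffness effect of -1.34 in WT and -1.08 in Cav1KO cells on the log2 scale.

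Ifi27 was the only one of the 47 genes without a stiffness effect past the threshold in either genotype. It had 157 and 193 CPM (WT) and 79.2 and 83.8 CPM (Cav1KO) on stiff, and 173 and 186 CPM (WT) and 79.7 and 80.5 CPM (Cav1KO) on soft gels, and the stiff and soft libraries overlapped within each genotype. The log2 fold change was -0.04 (standard error 0.10) in WT and 0.02 (0.10) in Cav1KO cells. The remaining effectors fell on stiff in both genotypes. Ifi44 had 12.9 and 27.9 CPM (WT) and 12.5 and 8.99 CPM (Cav1KO) on stiff, and 258 and 135 CPM (WT) and 178 and 168 CPM (Cav1KO) on soft gels. Rtp4, a chaperone-like transmembrane protein with antiviral activity, had 18.1 and 24.1 CPM (WT) and 6.77 and 5.097 CPM (Cav1KO) on stiff, and 166 and 114.5 CPM (WT) and 78.3 and 75.3 CPM (Cav1KO) on soft gels. Both were higher in every soft than in every stiff library, as were Ifi35, Xaf1, Lgals3bp and Tor3a. Ifi35 had 29.7 and 36.03 CPM (WT) and 17.9 and 21.04 CPM (Cav1KO) on stiff, and 104 and 70.02 CPM (WT) and 54.1 and 53.4 CPM (Cav1KO) on soft gels. Xaf1, a pro-apoptotic binding partner of XIAP, had 10.6 and 17.7 CPM (WT) and 4.53 and 3.23 CPM (Cav1KO) on stiff, and 76.01 and 50.6 CPM (WT) and 38.95 and 33.4 CPM (Cav1KO) on soft gels. Lgals3bp, a secreted galectin-binding glycoprotein, had 93.96 and 111 CPM (WT) and 38.02 and 31.5 CPM (Cav1KO) on stiff, and 387 and 292 CPM (WT) and 149 and 146 CPM (Cav1KO) on soft gels. Tor3a, a torsin-family ATPase, had 12.6 and 18.2 CPM (WT) and 12.7 and 13.04 CPM (Cav1KO) on stiff, and 113 and 67.9 CPM (WT) and 77.2 and 80.02 CPM (Cav1KO) on soft gels. Ifi44 and Rtp4 had the largest stiffness effects of these genes, and the WT and Cav1KO libraries of Tor3a overlapped on each substrate.

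The interferon-inducible GTPases were all lower on the stiff substrate in both genotypes (9 of 9 each), by 3.66-fold to 18.6-fold in WT cells. Of all genes tested, 26.3% were called lower in WT and 28.2% in Cav1KO cells. Adjusted p ran from 4.71e-05 to 0.0111 in WT and from 1.33e-05 to 0.000368 in Cav1KO cells (limma). Guanylate-binding proteins (GBPs) coat and break open vacuoles that hold microbes. Gbp2, Gbp3 and Gbp7 lie within 107.7 kb on chromosome 3. Gbp2 had 51.9 and 54.5 CPM (WT) and 30.7 and 26.9 CPM (Cav1KO) on stiff, and 226 and 164 CPM (WT) and 126 and 120.1 CPM (Cav1KO) on soft gels, and Gbp3 had 29.2 and 35.3 CPM (WT) and 20.9 and 12.4 CPM (Cav1KO) on stiff, and 165 and 111 CPM (WT) and 138 and 134 CPM (Cav1KO) on soft gels. Gbp7 had 2.11 and 1.596 CPM (WT) and 1.0 and 0.603 CPM (Cav1KO) on stiff, and 8.22 and 7.15 CPM (WT) and 13.3 and 11.6 CPM (Cav1KO) on soft gels and was lowest in Cav1KO stiff and highest in Cav1KO soft. Immunity-related GTPases (IRGs) act at the same vacuoles, with IIGP1 as an effector and the IRGM proteins as regulators. Iigp1 had the largest stiffness effect of the GTPases on the log2(CPM + 1) scale, with 1.71 and 3.25 CPM (WT) and 0.824 and 0.932 CPM (Cav1KO) on stiff, and 59.1 and 32.99 CPM (WT) and 36.8 and 37.7 CPM (Cav1KO) on soft gels. Its soft libraries were 18.6-fold above its stiff libraries in WT and 42.4-fold in Cav1KO cells, where the ratio of Mx2 was larger. Igtp had 7.58 and 12.8 CPM (WT) and 4.59 and 3.78 CPM (Cav1KO) on stiff, and 105 and 57.98 CPM (WT) and 57.7 and 58.4 CPM (Cav1KO) on soft gels, and Irgm2 had 10.3 and 18.4 CPM (WT) and 6.94 and 6.08 CPM (Cav1KO) on stiff, and 189 and 128.5 CPM (WT) and 112 and 111 CPM (Cav1KO) on soft gels. Igtp and Irgm2 overlap in the annotation and share 10.03% and 6.47% of their 60-nt windows with listed genes. Irgm1 had 28.9 and 47.8 CPM (WT) and 33.7 and 32.2 CPM (Cav1KO) on stiff, and 305 and 195 CPM (WT) and 213 and 204 CPM (Cav1KO) on soft gels, with no genotype difference past the threshold on either substrate. MX proteins are dynamin-like GTPases that trap viral nucleocapsids, and both genes were near the lower end of detection. The annotation used here lists Mx2 as a polymorphic pseudogene, and whether the transcripts of either gene encode a working protein in these cells was not tested. Mx1 had 0.452 and 0.228 CPM (WT) and 0.589 and 0.164 CPM (Cav1KO) on stiff, and 2.17 and 1.07 CPM (WT) and 3.71 and 3.497 CPM (Cav1KO) on soft gels, and its call in WT cells was lost without WT stiff replicate 2 or without WT soft replicate 1. Mx2 had 0.351 and 0.627 CPM (WT) and 0.176 and 0 CPM (Cav1KO) on stiff, and 4.89 and 3.28 CPM (WT) and 5.38 and 3.81 CPM (Cav1KO) on soft gels. The Cav1KO stiff libraries held 3 and 0 reads of Mx2 against 177 in the Cav1KO soft libraries together, a ratio of 53.9 with an exact 95% counting interval from 18.15 to 263.9.

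**Figure D3:**
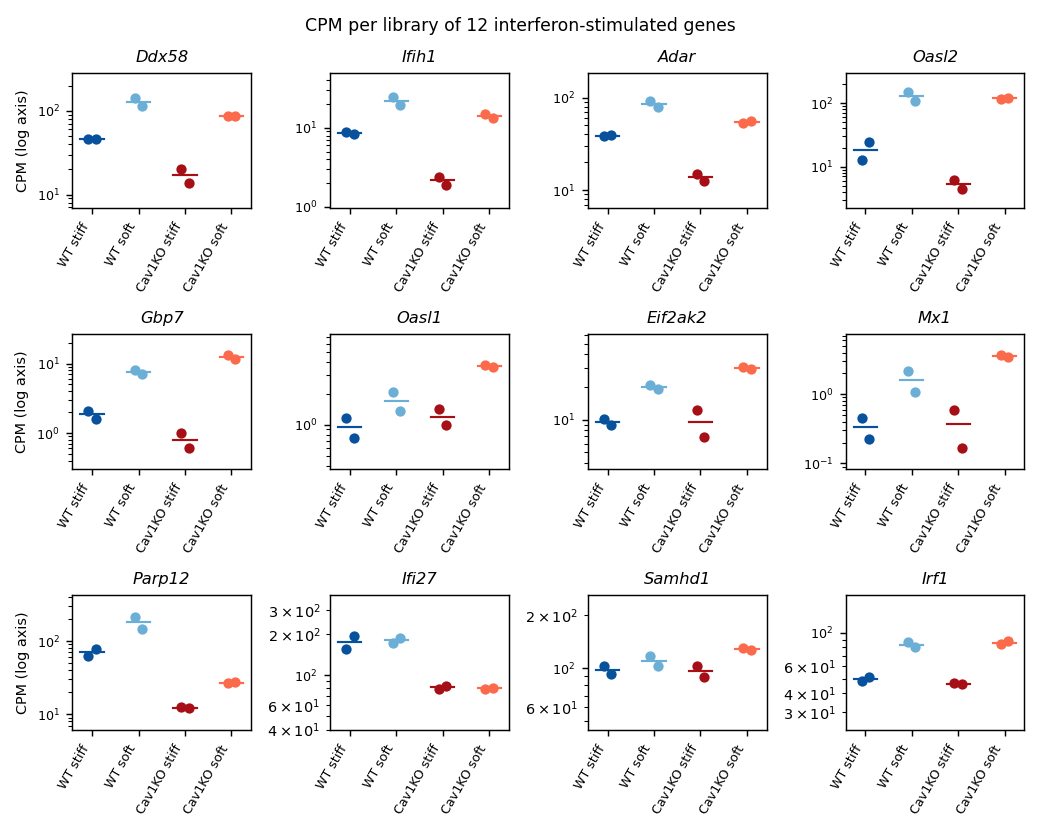
CPM (log axis) of 12 genes in each library, with points for the 2 libraries of a group and a bar for their mean. Ddx58, Ifih1, Adar, Oasl2 and Gbp7 are lowest in Cav1KO stiff, Parp12 and Ifi27 separate by genotype, and Samhd1 and Ifi27 vary least between substrates.

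The second comparison asks how loss of Cav1 bears on the set on each substrate. On the stiff substrate 33 of the 47 genes (70.2%) were lower in Cav1KO than in WT cells, and none was called higher. Among all genes tested 26.6% were lower and 25% higher. For the higher direction the count was 1 at an unadjusted p under 0.05, and 0 with edgeR and with DESeq2. On the soft substrate 19 (40.4%) were lower and 4 (8.51%) were higher (Oasl1, Eif2ak2, Gbp7 and Mx1), where 29.9% of all genes were lower and 24.1% higher. The share lower on soft was nearer to that of all genes than the share lower on stiff. The median log2 fold change of the 47 genes was -0.95 on stiff and -0.29 on soft, beside -0.03 over all genes on each. By role, the genes lower on stiff were 4 of 6 sensors, 2 of 4 transcription factors, 21 of 28 effectors and 6 of 9 GTPases. On soft they were 3 sensors, 1 transcription factor, 14 effectors and 1 GTPase. Both contrasts compare the same WT and Cav1KO lines, and a difference between the lines other than Cav1 would enter both.

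All 19 genes lower in Cav1KO cells on soft were also lower on stiff. They were Ddx58, Ifih1, Trim25, Irf9, Usp18, Herc6, Oas1a, Adar, Rsad2, Bst2, Parp9, Dtx3l, Parp12, Ifi27, Ifi35, Rtp4, Xaf1, Lgals3bp and Gbp2. On the log2 scale Parp12 had the largest genotype effect on each substrate, and it was lower in Cav1KO cells by 5.67-fold on stiff and 6.66-fold on soft (adjusted p = 7.4e-06 and 3.81e-06, limma). On that scale Usp18 followed on stiff, 5.86-fold lower in Cav1KO cells (adjusted p = 0.000522), and was 2.55-fold lower on soft (0.00584). Another 14 genes passed on stiff alone, namely Zbp1, Stat2, Ifit1, Ifit3, Isg15, Oasl2, Cmpk2, Sp100, Parp14, Gbp3, Gbp7, Igtp, Irgm2 and Iigp1. Of these 14, only Oasl2 and Gbp7 passed the test of the difference between substrates itself.

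The counts of genotype calls rest on single libraries in part. On stiff, the 33 lower genes became 21 without WT stiff replicate 2 and 25 without Cav1KO stiff replicate 2. The 12 lost without the former were Zbp1, Stat2, Ifit1, Ifit3, Isg15, Cmpk2, Parp14, Ifi35, Gbp3, Igtp, Irgm2 and Iigp1. On soft, the 19 became 10 without WT soft replicate 1, 12 without Cav1KO soft replicate 2 and 13 without Cav1KO soft replicate 1. The median on soft was 0.03 without WT soft replicate 1 and -0.65 without WT soft replicate 2, so no direction on soft can be given for the set as a whole. On stiff the median stayed between -1.18 and -0.75 in all leave-one-out fits. Eif2ak2, Mx1 and Gbp7 each lost their higher call on soft without WT soft replicate 2. Over all alternatives Eif2ak2 lost this call in 8 fits, Mx1 in 5 and Gbp7 in 2. Oasl1 kept its higher call in all leave-one-out fits but lost it with DESeq2.

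**Figure D4:**
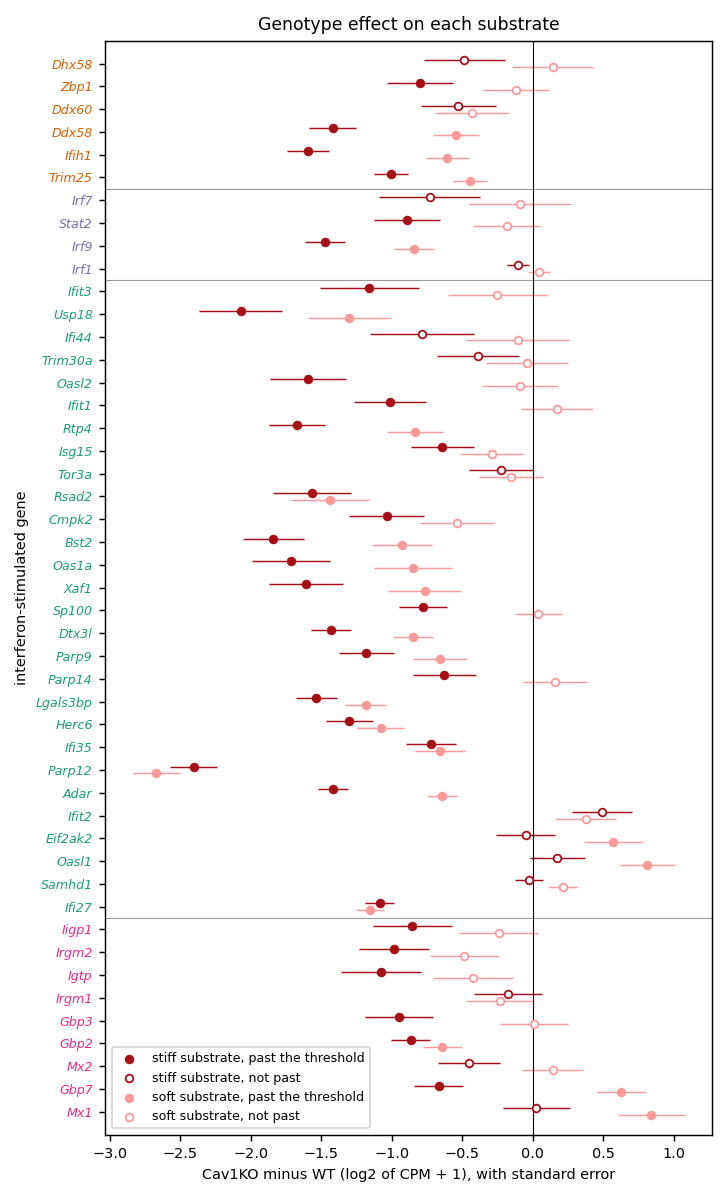
Cav1KO minus WT effect (log2 of CPM + 1, bars are the standard error) of each of the 47 genes on the stiff (dark) and soft (light) substrate, with filled points where the limma test passed the threshold. Points on stiff lie mostly left of 0, with 33 filled, while those on soft straddle 0 more often, and Parp12 lies farthest left.

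The third comparison asks whether the stiffness effect differs between genotypes. The stiff minus soft value was lower in Cav1KO than in WT cells for 43 of the 47 genes (91.5%), and for 44.1% of all genes tested. The test of this difference passed the threshold for 5 genes (10.6%), namely Ddx58, Ifih1, Adar, Oasl2 and Gbp7. All 5 fell more on stiff in Cav1KO cells, and no gene of the set passed in the other direction. Among all genes tested 4.47% passed in the first direction and 6% in the other. For the other direction the count was also 0 at an unadjusted p under 0.05, and 0 with edgeR and with DESeq2. The median difference over the set was 0.63 log2 units, beside -0.07 over all genes. The 5 differences were 0.87 (standard error 0.23) for Ddx58, 0.99 (0.21) for Ifih1, 0.77 (0.15) for Adar, 1.50 (0.38) for Oasl2 and 1.29 (0.24) for Gbp7. Their adjusted p were 0.0496, 0.0319, 0.0259, 0.0445 and 0.0224 in the same order (limma).

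Ddx58 and Ifih1, the RIG-I and MDA5 genes, fell by 2.77-fold and 2.60-fold on stiff in WT cells and by 5.12-fold and 6.54-fold in Cav1KO cells. Adar fell by 2.21-fold and 3.90-fold, and Oasl2 by 6.94-fold and 22.7-fold. Gbp7 fell by 4.15-fold and 15.5-fold, and was the only one of the 47 genes that passed in opposite directions on the 2 substrates, lower in Cav1KO cells on stiff and higher on soft. These 5 calls lie close to the threshold, and DESeq2 called 13 genes and a pseudocount of 5 CPM 2 genes. Leaving out 1 library at a time changed the calls, and more genes of the set were called without Cav1KO stiff replicate 1. All 5 lost their call in each fit without WT soft replicate 1, WT soft replicate 2, Cav1KO stiff replicate 2 or either Cav1KO soft library. The adjusted p over all alternatives ran from 0.00199 to 0.161 for Ddx58, 0.00454 to 0.143 for Ifih1, 0.00165 to 0.11 for Adar, 0.0168 to 0.153 for Oasl2 and 0.00603 to 0.115 for Gbp7.

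The rest of the interferon pathway was examined from lists written by role. None of 11 interferon genes on the list (Ifnb1, Ifna1, Ifna2, Ifna4, Ifna5, Ifnk, Ifne, Ifnz, Ifnl2, Ifnl3 and Ifng) was among the listed genes, so no interferon level can be given. Of 16 receptor and JAK-STAT genes 15 were listed. On stiff, 8 of them were lower and none higher in WT cells, where 26.3% of all genes tested were lower and 22.1% higher. In Cav1KO cells 8 were lower and 1 higher, where 28.2% and 27.9% of all genes were. The median of the list was -0.40 in WT and -0.41 in Cav1KO cells, so these genes moved less than the ISG set. For the higher direction in WT cells the count was also 0 at an unadjusted p under 0.05 and with edgeR and DESeq2.

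The type I receptor chains and Ifngr2 were higher in Cav1KO cells. Ifnar1 had 39.9 and 34.7 CPM (WT) and 62.3 and 57.8 CPM (Cav1KO) on stiff, and 50.9 and 52.8 CPM (WT) and 98.8 and 97.2 CPM (Cav1KO) on soft gels, and Ifnar2 had 42.6 and 49.4 CPM (WT) and 94.98 and 87.5 CPM (Cav1KO) on stiff, and 66.9 and 63.1 CPM (WT) and 115 and 120.2 CPM (Cav1KO) on soft gels. Both chains of the type I receptor were higher in Cav1KO than in WT cells on both substrates, by 1.61-fold to 1.98-fold, and lower on stiff than on soft in both genotypes, by 1.29-fold to 1.63-fold. The fall of Ifnar2 on stiff in Cav1KO cells lost its call without Cav1KO soft replicate 2. Ifngr2, a chain of the type II receptor, had 29.1 and 32.7 CPM (WT) and 80.03 and 83.2 CPM (Cav1KO) on stiff, and 47.1 and 40.9 CPM (WT) and 95.8 and 90.8 CPM (Cav1KO) on soft gels and was 2.64-fold higher in Cav1KO cells on stiff and 2.12-fold on soft. Of the receptor-bound kinases, Tyk2 had 8.79 and 9.18 CPM (WT) and 9.83 and 8.77 CPM (Cav1KO) on stiff, and 16.1 and 15.6 CPM (WT) and 15.5 and 16.4 CPM (Cav1KO) on soft gels, lower on stiff in both genotypes with no genotype difference past the threshold. Jak1 had 96.9 and 72.5 CPM (WT) and 61.1 and 40.8 CPM (Cav1KO) on stiff, and 77.9 and 85.9 CPM (WT) and 68.96 and 64.7 CPM (Cav1KO) on soft gels. Its WT stiff and soft libraries overlapped, and it was lower in Cav1KO than in WT cells on stiff (log2 fold change -0.73, adjusted p = 0.011), a call lost without WT stiff replicate 1. Socs1, a feedback inhibitor of JAK kinases, had 30.2 and 36.03 CPM (WT) and 20.1 and 21.9 CPM (Cav1KO) on stiff, and 47.5 and 40.2 CPM (WT) and 19.7 and 21.6 CPM (Cav1KO) on soft gels and was 2.13-fold lower in Cav1KO cells on soft. Socs3 went the other way and was 2.28-fold higher in Cav1KO than in WT cells on stiff (adjusted p = 0.000132, limma). On soft the mean of Socs3 was 122.6 CPM in Cav1KO and 70.2 CPM in WT cells. In Cav1KO against WT cells 7 of the 15 listed genes were higher and 3 lower on stiff, and 9 were higher and 2 lower on soft. The shares of all genes tested were 25% higher and 26.6% lower on stiff, and 24.1% and 29.9% on soft. By limma none of the 47 ISGs was called higher in Cav1KO cells on stiff, though 3 had a positive log2 fold change.

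Of 25 genes that act between the sensors and interferon transcription, all were listed. On stiff, 6 of the 25 were higher and 10 lower in WT cells, where 22.1% and 26.3% of all genes tested were. In Cav1KO cells 4 were higher and 9 lower, where 27.9% and 28.2% of all genes were. The medians of the list were -0.17 in WT and -0.03 in Cav1KO cells. The largest stiffness effects were those of Trex1 (-1.53), Tlr3 (-1.48) and Tlr4 (-1.42) in WT cells, and of Ifi204 (-2.13), Tlr3 (-1.81) and Rnaseh2b (0.91) in Cav1KO cells, on the log2 scale. TREX1 degrades cytosolic DNA and RNASEH2B is a subunit of a nuclease that removes RNA from DNA, and loss of either is known to raise interferon signaling. TLR3 senses double-stranded RNA and TLR4 bacterial lipopolysaccharide. Dhx36, an RNA helicase, was higher in Cav1KO cells on both substrates, and Tank, an adaptor of the kinase TBK1, was lower on both.

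Another 59 ISGs outside the set were listed by name, also with earlier results of these data known, and 54 of them were in the table. On stiff, 49 were lower in WT and 52 in Cav1KO cells and none was higher, with medians of -1.35 and -1.83. The matching shares of all genes tested were 26.3% lower and 22.1% higher for WT, against 28.2% and 27.9% for Cav1KO. For the higher direction the count of these ISGs was also 0 at an unadjusted p under 0.05 and with edgeR and DESeq2 in both genotypes. Tgtp2, Ifi47 and Tgtp1, all immunity-related GTPases, had the largest effects in WT cells on the log2 scale (-3.72, -3.46 and -3.15). Tgtp2, Tgtp1 and Oas2 had the largest in Cav1KO cells (-4.38, -4.02 and -3.77). The paralogs Tgtp1 and Tgtp2 are near-identical copies, so reads may be split between them. By genotype, 6 of the 54 were higher and 15 lower in Cav1KO cells on stiff, where 25% and 26.6% of all genes tested were. On soft, 17 were higher and 8 lower, where 24.1% and 29.9% of all genes were. The counts on soft rest on single libraries in part, with 8 higher without Cav1KO soft replicate 1 and 14 lower without WT soft replicate 2. Apobec3, an antiviral cytidine deaminase, was the most raised in Cav1KO cells on both substrates on the log2 scale, with 16.02 and 16.3 CPM (WT) and 76.8 and 59.8 CPM (Cav1KO) on stiff, and 23.2 and 22.03 CPM (WT) and 102 and 101 CPM (Cav1KO) on soft gels. Rnf213, a giant ubiquitin ligase, was the most lowered on stiff, with 59.8 and 55.98 CPM (WT) and 18.3 and 11.9 CPM (Cav1KO) on stiff, and 110.3 and 91.9 CPM (WT) and 112 and 103 CPM (Cav1KO) on soft gels. Ifi204 stands on both this list and the previous list.

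**Figure D5:**
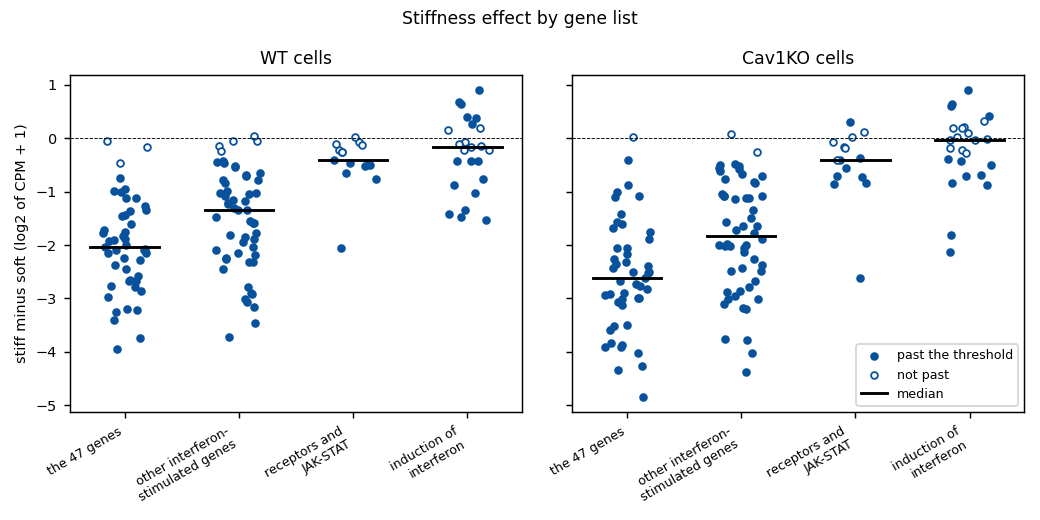
Stiffness effect (log2 of CPM + 1) of single genes in 4 lists, in WT (left) and Cav1KO cells (right), with filled points past the threshold and a bar at each list's median. The 47 genes and the other ISGs lie mostly below 0 with medians from -2.63 to -1.35, while the receptor and induction lists have medians from -0.41 to -0.03.

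The level of markers also changed between the groups. Summed over the 9 listed fibroblast markers, expression was 9255 to 9428 CPM in WT stiff, 12050 to 12200 CPM in WT soft, 4500 to 5610 CPM in Cav1KO stiff and 13530 to 13570 CPM in Cav1KO soft libraries. On stiff 7 of the 9 were lower in WT and 9 in Cav1KO cells, where 26.3% and 28.2% of all genes tested were. The part of this in the ISG result was not tested. Cd68 and Cd14 together had 24.9 to 29.6 CPM in WT stiff, 35.1 to 40.4 CPM in WT soft, 96.2 to 103.6 CPM in Cav1KO stiff and 92.8 to 94.7 CPM in Cav1KO soft libraries, while the defining leukocyte gene Ptprc was not listed. Cd14 made up most of this sum. It was higher in Cav1KO than in WT cells on both substrates and did not differ past the threshold between substrates in Cav1KO cells (adjusted p = 0.31, limma). Cd68, at 0.552 to 4.548 CPM, was lower on stiff than on soft in both genotypes, as the ISGs were. Their part in the ISG result was not tested.

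Compared per kb of the longest annotated transcript, Ifi27, Bst2 and Isg15 were the most abundant of the 47 genes in WT stiff, WT soft and Cav1KO stiff libraries. In WT stiff they had 179, 157.9 and 49.65 CPM per kb, and in Cav1KO stiff 83.4, 42.7 and 30.8. On the soft substrate Bst2 led, with 718.4 CPM per kb in WT and 366.6 in Cav1KO cells, and Isg15 came next with 304.3 and 242.6. Mx1, Mx2 and Ddx60 were last in both stiff groups, and Mx1, Oasl1 and Ddx60 in both soft groups, with 0.48 CPM per kb for Mx1 in WT soft. Ifi27 was thus first on stiff in both genotypes and behind Bst2 and Isg15 on soft.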

How the data were processed

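RNA-seq libraries of 8 samples were assigned to 4 groups from the genotype and gel named in the labels. According to the submitters' processing notes, reads of 60 nt were handled with CASAVA 1.8.2, cutadapt and RSEM 1.2.3 on GRCm38. The authors deposited TMM-scaled CPM, that is, a signal equal to a gene's reads divided by its library's effective size. RSEM's strand setting and the filter that left 12528 genes are not given in the sources used here. The read value of each library was recovered from the steps between values, and 100% of the deposited values were whole reads within 0.01 reads. All columns belonged to the 8 samples.

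For testing, a gene had to reach 1 CPM in 2 or more libraries, which 12494 genes did. The test was limma (version 3.58.1, R 4.3.3) applied to log2(CPM + 1). A single fit held the 4 groups, with a mean-variance trend, no replicate block and 4 residual degrees of freedom. Alternatives were edgeR 4.0.16 (quasi-likelihood) and DESeq2 1.42.0 on the recovered reads, other pseudocounts (0.5 and 5 CPM), filters and scalings, no trend, a replicate block, and each library left out. The fit was tested on simulated data with known changes. Replicate numbers are tied to no shared day in the labels, so no pairing was assumed. Coordinates, lengths and shared 60-nt windows are from GENCODE M21 (GRCm38), and promoter windows are from RefSeq (GRCm38.p6).

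The 47 genes, the pathway and marker lists and the tests were chosen with earlier results of these data known. Every member is named. All effectors passed the threshold in at least 1 contrast, so values in each library are given for all 47 genes. Of the pathway lists, the text names Ifnar1, Ifnar2, Jak1, Tyk2 and genes among the 3 largest changes past the threshold per list and contrast. Some genes of these lists are not reported here.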

Additional observations from a re-analysis of the deposited data

Results flagged for a closer look

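The stiffness effect differed between WT and Cav1KO cells, by the limma interaction test with Benjamini-Hochberg adjustment over all genes, for 5 of the 47 genes and for 4 named genes of the wider pathway. The values are the effect in WT minus that in Cav1KO cells on the log2(CPM + 1) scale, so a positive value means a larger fall on stiff in Cav1KO cells. Of all genes tested, 4.47% passed with a positive and 6% with a negative value. The calls of the 5 genes lie close to the threshold, and each was lost in some leave-one-out fits. Among the 47 genes the difference was 0.87 for Ddx58, 0.99 for Ifih1, 1.50 for Oasl2, 0.77 for Adar and 1.29 for Gbp7. Among other ISGs it was 1.99 for Rnf213 (adjusted p = 0.0054) and 1.52 for Slfn8 (0.0198). In the JAK-STAT list it was 0.60 for Stat3 (adjusted p = 0.0414), a transcription factor of the interleukin pathway. In the induction list it was -0.92 for Tlr4 (adjusted p = 0.0221), which fell on stiff more in WT than in Cav1KO cells. On stiff gels Tlr4 had 7.53 and 7.92 CPM in WT and 24.01 and 27.1 CPM in Cav1KO cells, and on soft gels 24.65 and 20.4 CPM and 37.7 and 35.5 CPM.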

How the results depend on the processing

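Of the 44 genes lower on stiff in WT and the 46 in Cav1KO cells, 1 lost its call in any of the 18 alternatives where it was tested, namely Mx1 in WT cells (without WT stiff replicate 2 or WT soft replicate 1). The median in Cav1KO cells was -2.98 with edgeR, -2.98 with DESeq2 and -2.11 with a pseudocount of 5 CPM. Ifi27 changed sign without passing the threshold, with -0.1922 to 0.1069 in WT and -0.016 to 0.0642 in Cav1KO cells in leave-one-out fits and -0.0855 in Cav1KO cells with quantile normalization. The 5 interaction calls became 13 with DESeq2, 2 with a pseudocount of 5 CPM, 3 without the trend and 0 to 14 in leave-one-out fits. For Cav1KO against WT on stiff, leave-one-out fits gave 21 to 34 lower and 0 to 1 higher genes, and median centring and the replicate block gave 1 higher gene, Ifit2. On soft they gave 10 to 21 lower and 1 to 4 higher genes, and medians from -0.65 (without WT soft replicate 2) to 0.031 (without WT soft replicate 1). DESeq2 and a mean of at least 5 CPM gave 2 higher genes on soft each. The cause of these shifts was not tested, except that the filter at 5 CPM removes low genes. Called genotype effects that shrank by over 1.5 times were on stiff Parp14 (to -0.37), Isg15 (-0.35), Iigp1 (-0.53), Irgm2 (-0.60) and Ifit3 (-0.65) without WT stiff replicate 2, and Gbp3 (-0.59), Parp14 (-0.35), Ifit1 (-0.61) and Stat2 (-0.59) without Cav1KO stiff replicate 2. On soft they were Ifi35 (-0.38), Parp9 (-0.41), Gbp2 (-0.41), Xaf1 (-0.48), Bst2 (-0.57) and Oas1a (-0.45) without WT soft replicate 1, and Mx1 (0.54) without WT soft replicate 2. Deviations of same-numbered libraries from their group means correlated from -0.367 to 0.415, with the highest value between WT stiff and Cav1KO stiff. With 2 libraries per group these correlations cannot tell whether same-numbered libraries were paired. With the replicate block 45 genes were lower on stiff in WT and 46 in Cav1KO cells, 4 passed the interaction test, and 31 were lower in Cav1KO cells on stiff and 19 on soft, with 6 higher on soft. No scaling moved the median of all genes by over 0.1. Of the wider pathway, Slfn8, Stat3 and Tlr4 lost their interaction call in some leave-one-out fits, and Stat3 also without the trend. A group left with 1 library was assumed to vary like the other groups. The number of 2 libraries per group limits the precision, and genes under about 1 CPM rest on few reads.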
